A study of Mus musculus with 16 samples.

Results

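The 8 genes described here belong to the growth hormone and insulin-like growth factor (IGF) axis and were named by symbol from the 27272 genes listed: *Ghrh*, *Sst*, *Ghr*, *Igf1*, *Igf1r*, *Igf2*, *Igfbp2* and *Igfbp5*. The choice was made with earlier results of these data known. All 8 had transcripts in the cells kept, and their levels were followed across 9 cell types, 23 neuronal clusters and 4 groups of mice. Growth hormone-releasing hormone, encoded by *Ghrh*, and somatostatin, encoded by *Sst*, are hypothalamic peptides with opposite actions on the release of growth hormone from the pituitary. Growth hormone acts through its receptor (*Ghr*) and raises the production of IGF-1 (*Igf1*), which feeds back on the hypothalamus. IGF-1 and IGF-2 (*Igf2*) signal through the IGF-1 receptor (*Igf1r*), and binding proteins such as those encoded by *Igfbp2* and *Igfbp5* hold the ligands outside the cell and set how much of them is free.

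The study asked how long tamoxifen treatment alters gene expression in the hypothalamus-POA, where POA is the preoptic area, and whether estrogen receptor alpha (*Esr1*) is needed for it. Drop-seq, which captures single cells in droplets and counts the 3′ ends of their transcripts as unique molecular identifiers (UMIs), gave 1 library from each of 16 female mice, aged 8 to 10 weeks at the start and kept on a mixed CD-1;129P2 background. Tissue was taken 2 h after the last of 28 daily subcutaneous injections. Esr1cKO mice carry floxed *Esr1* and a Cre transgene driven by *Nkx2-1*, so that deletion is confined to cells of the *Nkx2-1* lineage, and WT mice are littermates without Cre.

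The 4 groups were WT mice given corn oil, the vehicle (n = 3), WT mice given tamoxifen at 0.1 mg/kg (n = 5), Esr1cKO mice given oil (n = 4) and Esr1cKO mice given tamoxifen at that dose (n = 4). Both solutions were corn oil with ethanol, and the methods of the study state a higher share of ethanol for the vehicle than for tamoxifen. *Esr1* in neurons ran from 44.1 to 86.4 CPM (UMIs of a gene scaled to the usual common total of UMIs, here that of the cells summed) in WT oil, from 57.2 to 74.4 in WT tamoxifen, from 41.4 to 58.9 in Esr1cKO oil and from 17.1 to 71.2 in Esr1cKO tamoxifen mice, and the groups overlapped. Drop-seq reads lie at the 3′ end of a transcript and the floxed part of *Esr1* is not given in the sources used here, so this level is no check of the deletion.

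Libraries held 2634253 to 8038158 UMIs, and the 55675 cells kept had a median of 563 to 819 UMIs per library. A pair of libraries stood apart, WT oil replicate 3 and Esr1cKO tamoxifen replicate 3, since each of their listed barcodes had at least 100 genes against 20 in the other libraries. The last 4 libraries (WT tamoxifen replicates 4 and 5, Esr1cKO oil replicate 4 and Esr1cKO tamoxifen replicate 4) shared 624 to 873 barcodes per pair, against a median of 7 in the other pairs, and 3088 of the kept cells carried a barcode found in another library. Values without these libraries or cells are given for some results only, and other values moved too. Without the pair that stood apart, mean *Igf2* in endothelial cells went from 196 to 173 CPM and mean *Igfbp2* in astrocytes from 112 to 97.9 CPM. Cells were clustered here with the 8 genes left out of the genes used for clustering, and each of the 9 types was named from a list of 10 markers, of which 9 or 10 were higher in it than in the other cells. The 214 cells with pars tuberalis markers stayed outside the 9 types, and the named types may differ from those of the study because they were rebuilt.

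The genes lie on 6 chromosomes of GRCm38. *Sst* spans 23889573 to 23890958 on the minus strand of chromosome 16, and *Ghrh* spans 157329497 to 157347506 on the minus strand of chromosome 2. Both receptor genes are long, *Ghr* reaching from 3317760 to 3583492 on the minus strand of chromosome 15 and *Igf1r* from 67952827 to 68233668 on the plus strand of chromosome 7. *Igf2* lies on the minus strand of chromosome 7 from 142650766 to 142666816, where it overlaps *Igf2os* on the opposite strand, a gene with 27 UMIs in the cells kept, and reads of such a pair can be told apart only where the counting used strand, which is not given in the sources used here. *Igf1* runs from 87858265 to 87937042 on the plus strand of chromosome 10. *Igfbp2* (72824503 to 72852474, plus strand) and *Igfbp5* (72857932 to 72874884, minus strand) are neighbours on chromosome 1.

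The promoter of *Sst* is printed because *Sst* had the smallest p-value of the members in the comparisons of treatment and because this window carries the element to which a cAMP-responsive factor binds. The window holds the 250 bases before the start that RefSeq's promoter table gives on GRCm38.p6, minus strand, chr16:23890845-23891094, and the capitals mark TGACGTCA, the palindrome known as the cAMP response element, which begins 48 bases before that start. The *Sst* coordinates given above are those of the GENCODE annotation, whose gene starts further upstream, so the palindrome and part of the window lie inside the gene as GENCODE draws it.
Sst promoter: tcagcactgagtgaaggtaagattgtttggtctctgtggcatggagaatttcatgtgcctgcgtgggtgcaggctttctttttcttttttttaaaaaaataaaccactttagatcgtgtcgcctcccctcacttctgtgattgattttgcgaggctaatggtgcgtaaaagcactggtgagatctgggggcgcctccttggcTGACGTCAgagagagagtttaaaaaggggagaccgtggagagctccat
Of the 14 windows of the 8 members, 1 held this motif, and 508 of all 32851 windows did (1.55%). The full palindrome of the estrogen response element was in 0 of the 14 member windows and in 21 of all windows (0.0639%). Each motif reads the same on both strands, and a match describes the letters of the window only.

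*Sst* was a neuronal transcript, with a lowest level of 121, a median of 351 and a highest of 841 CPM in neurons over the 16 libraries, and neurons held 94.8% of its UMIs. Its mean in neurons was 373 ± 192 CPM (SD, n = 16), and the next type, mural cells, had 17.6 ± 18.6 CPM. Neurons were above mural cells in 16 of 16 libraries (exact two-sided sign-flip permutation test over libraries, p = 3.05e-05, the smallest it can give, Benjamini-Hochberg adjusted p = 0.000391 over 64 pairs of types next to each other in the order of a gene's means). From mural cells down to endothelial cells, 6.15 ± 3.48 CPM, no neighbours in the order of *Sst* differed beyond their spread.

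At least 1 *Sst* UMI was seen in 5.34% of the 9137 neurons (exact Clopper-Pearson interval at 95% confidence, 4.89 to 5.82%), at a median depth of 1488 UMIs. Endothelial cells, which are not known to make somatostatin, showed 0.654% (0.481 to 0.868%) at a median depth of 732 UMIs. When each cell was thinned to 500 UMIs, leaving out 1824 shallower neurons and 2215 shallower endothelial cells, the shares were 3.45% and 0.301%. Intervals cover counting error only.

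*Ghrh* was found in both neurons and ependymal cells, the ciliated cells and tanycytes that line the ventricle. Its level in neurons ran from 0 to 144 CPM with a median of 17.1, and in ependymal cells from 5.67 to 62.9 CPM with a median of 24.3. The means, 28.9 ± 41.1 and 27.9 ± 14.6 CPM (SD, n = 16), could not be ordered, with neurons above ependymal cells in 7 of 16 libraries (exact sign-flip permutation test, adjusted p = 0.996). Ependymal cells exceeded astrocytes, at 3.80 ± 2.86 CPM, in 15 of 16 libraries (exact sign-flip permutation test, adjusted p = 0.000558). The order of the leading pair turned on the log2(CPM + 1) scale, with mitochondrial shares under 5%, without the 2 libraries that stood apart, and also when Esr1cKO tamoxifen replicate 1 or WT oil replicate 3 was left out alone, where ependymal cells came out above neurons.

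The breadth of *Ghrh* differed between these types. In neurons 74.5% of all its UMIs lay, and 7 neurons held 50% of those, while 1 neuron of WT oil replicate 3 had 98 of the 115 neuronal UMIs of that library. Of ependymal cells, 3.62% (3.00 to 4.33%) had a *Ghrh* UMI at a median depth of 1117 UMIs, against 1.42% (1.19 to 1.69%) of neurons and 0.167% (0.0863 to 0.291%) of endothelial cells. Thinned to 500 UMIs, with 517, 1824 and 2215 shallower cells left out, the shares were 1.54% (1.11 to 2.08%) in ependymal cells, 0.588% (0.426 to 0.791%) in neurons and 0.141% (0.0566 to 0.290%) in endothelial cells. Among ependymal cells the UMIs lay mainly in ciliated cells, with 110 UMIs in 1906 cells and 39.0 ± 30.7 CPM, and tanycytes had 18 UMIs in 1278 cells and 15.7 ± 26.9 CPM, ciliated cells being higher in 15 of 16 libraries. Mural cells had a *Ghrh* UMI in 0 of 2361 cells, at a median depth of 527 UMIs, which allows a share of cells with a UMI of up to 0.127% and sets no limit on cells that express the gene.

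The upper limit of 4000 genes per cell touched *Ghrh* more than any other member. Barcodes at or above it held 505 of the 1376 *Ghrh* UMIs listed (36.7%), against 13.9% for *Sst*, 17.4% for *Igfbp5* and 7.34% to 11.7% for the rest. A barcode of Esr1cKO oil replicate 4 that was removed by this limit held 291 *Ghrh* UMIs, more than the 41 in all kept cells of that library. Levels of *Ghrh* in neurons therefore describe cells below the limit.

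**Figure D1:**
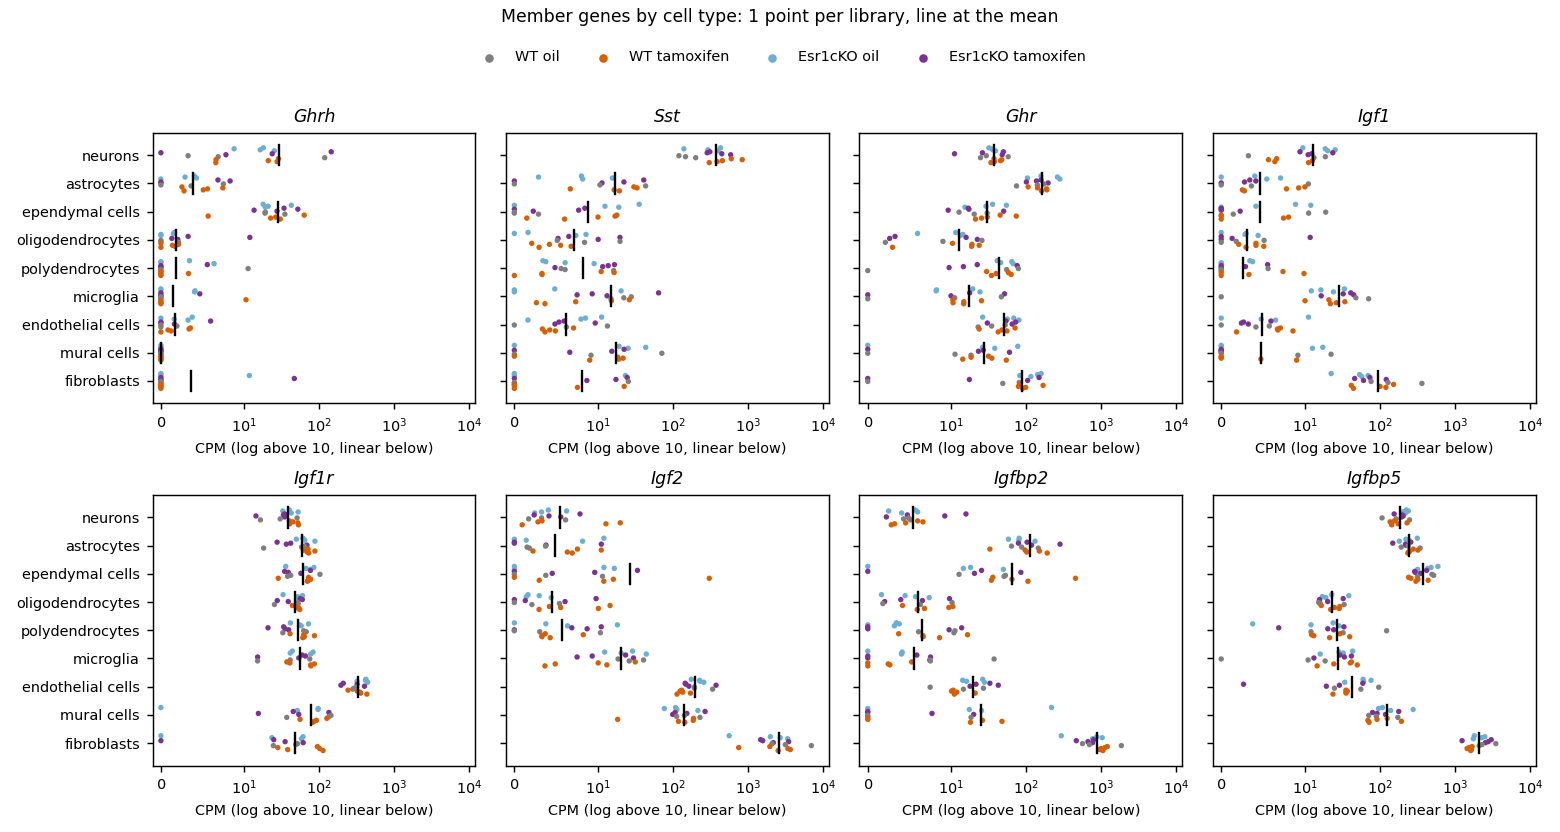
Level of each of the 8 genes in the 9 cell types, with 1 point per library coloured by group, a black line at the mean and CPM on an axis that is logarithmic above 10 and linear below. *Sst* stands out in neurons (373 CPM), *Ghr* in astrocytes (160 CPM), *Igf1r* in endothelial cells (330 CPM), and *Igf1*, *Igf2*, *Igfbp2* and *Igfbp5* in fibroblasts, while the means of *Ghrh* in neurons and ependymal cells, 28.9 and 27.9 CPM, lie side by side.

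Both receptors were highest in types other than neurons. *Ghr*, the growth hormone receptor, was highest in astrocytes, at a lowest of 74.2, a median of 157 and a highest of 281 CPM, and 42.1% of its UMIs lay there. The astrocyte mean of 160 ± 55.4 CPM exceeded that of fibroblasts, 88.3 ± 52.3 CPM, in 14 of 16 libraries (exact sign-flip permutation test, adjusted p = 0.00234). Below these, endothelial cells had 50.1 ± 18.5 CPM, polydendrocytes 43.7 ± 23.9, neurons 36.8 ± 11.3 and oligodendrocytes, the lowest type, 12.53 ± 7.88 CPM. None of the neighbours from fibroblasts down differed past the threshold.

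*Igf1r*, which binds IGF-1 and IGF-2 and signals as a tyrosine kinase, was an endothelial transcript. Endothelial cells ran from 194 to 440 CPM with a median of 319 and had a mean of 330 ± 76.6 CPM, and mural cells followed at 77.8 ± 43.6 CPM (higher in 16 of 16 libraries, exact sign-flip permutation test, adjusted p = 0.000391). The types from mural cells to oligodendrocytes lay between 77.8 and 47.3 CPM, and no neighbours among them differed beyond their spread. Neurons were the lowest type at 38.1 ± 11.6 CPM and were under oligodendrocytes, 47.3 ± 10.7 CPM, in 14 of 16 libraries (exact sign-flip permutation test, adjusted p = 0.00768).

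Of the ligands, *Igf1* was highest in fibroblasts, at 96.3 ± 80.7 CPM, ahead of microglia at 28.5 ± 17.4 CPM in 15 of 16 libraries and of neurons at 13.1 ± 6.61 CPM (exact sign-flip permutation tests, adjusted p = 0.000558 and 0.00854 for these steps). The fibroblast mean was 75.3 ± 37.6 CPM without the libraries that stood apart, as WT oil replicate 3 had 366 CPM. By UMIs, neurons, a larger and deeper sequenced type, held the largest share, 40.03%. Within the microglial type, finer clusters divided the signal: 95 *Igf1* UMIs lay in 792 cells with markers of perivascular macrophages, and 24 in 4611 microglia. The macrophage cluster, whose leading genes also include the neutrophil genes *S100a8* and *S100a9*, had 159 ± 109 CPM against 6.21 ± 6.29 CPM in microglia and was higher in 15 of 16 libraries.

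*Igf2*, the other ligand and an imprinted gene, was a transcript of fibroblasts and the vessel wall. Fibroblasts had 2626 ± 1509 CPM, with a lowest of 564, a median of 2357 and a highest of 7018, the last in WT oil replicate 3, and 2250 ± 965 CPM without the libraries that stood apart. Endothelial cells followed at 196 ± 75.6 CPM, below fibroblasts in 16 of 16 libraries (exact sign-flip permutation test, adjusted p = 0.000391), and did not differ past the threshold from mural cells, 143 ± 63.0 CPM. Most endothelial UMIs lay in a finer cluster that could not be named, because its leading genes join mural markers (*Rgs5*, *Higd1b*, *Vtn*, *Kcnj8*) to endothelial markers: this cluster of 1605 cells held 1386 *Igf2* UMIs and 406 ± 171 CPM, and the other 5588 endothelial cells held 288 UMIs and 66.1 ± 47.3 CPM. Whether those cells are endothelial cells or carry mural RNA was not tested. Among mural cells, pericytes had 452 ± 235 CPM and vascular smooth muscle cells 35.0 ± 27.7 CPM, with no overlap between the 15 libraries.

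Both binding proteins shared the fibroblast as their highest of the 9 types and then differed. *Igfbp2* had 879 ± 356 CPM in fibroblasts, from 293 to 1852 with a median of 830, and astrocytes were next at 112 ± 59.8 CPM (lower in 16 of 16 libraries, exact sign-flip permutation test, adjusted p = 0.000391). Its lowest types were microglia and neurons, at 5.52 ± 8.94 and 5.48 ± 3.25 CPM. *Igfbp5* was broader, with 2129 ± 637 CPM in fibroblasts, 382 ± 105 in ependymal cells, 246 ± 51.9 in astrocytes, 189 ± 41.1 in neurons and 124 ± 57.4 in mural cells, and each of these steps passed the threshold (exact sign-flip permutation tests, adjusted p = 0.000391, 0.00302, 0.0123 and 0.00768).

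Within ependymal cells, tanycytes, which line the floor of the third ventricle and take up signals from blood, carried the higher *Igfbp5*, 633 ± 142 against 227 ± 79.1 CPM in ciliated cells, in 16 of 16 libraries. The cells with pars tuberalis markers, outside the 9 types, had 2908 ± 994 CPM of *Igfbp5* in the 10 libraries with at least 10 such cells. This was above the tanycytes of those libraries, 679 ± 115 CPM, in 10 of 10 and above their fibroblasts in 8 of 10. The pars tuberalis is pituitary tissue attached to the stalk and is known for thyrotropin (*Tshb*), which was among the leading genes of these cells.

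In ependymal cells, 1 library held much of *Igf2* and a smaller part of *Igfbp2*. WT tamoxifen replicate 2 held 54 of the 98 ependymal *Igf2* UMIs and 80 of the 304 *Igfbp2* UMIs, and 10 of its cells with at least 100 UMIs of *Ttr*, a transthyretin gene typical of choroid plexus, held 54 and 76 of them. The summed level of 8 choroid plexus genes in the ependymal cells of this library was 1.128e+05 CPM with 8 of 8 detected, against 42.3 to 239 CPM with 3 to 6 detected in the other 15 libraries. Without it, ependymal *Igf2* went from 26.8 ± 75.0 to 8.22 ± 9.38 CPM and *Igfbp2* from 63.9 ± 108 to 38.0 ± 30.4 CPM (n = 15).

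In all, 18 of the 64 neighbouring pairs of types passed the threshold, among them the leading pair of 7 of the 8 genes, *Ghrh* being the exception. With a mitochondrial share under 5%, 8 pairs passed. Other genes of the axis had their highest types as follows, as levels with no test. The somatostatin receptor genes *Sstr1* and *Sstr2* led in polydendrocytes (75.0 ± 26.3 CPM, with neurons next at 19.03 ± 4.98) and in neurons (8.63 ± 5.59 CPM), *Sstr3* in neurons (3.68 ± 1.70 CPM) and *Sstr4* in fibroblasts (17.6 ± 18.8 CPM). The ghrelin receptor gene *Ghsr* led in neurons with 2.64 ± 2.45 CPM, and *Ghrhr*, the receptor for the releasing hormone, had 2 UMIs in mural cells, where its mean CPM was highest, and its most UMIs, 9, in neurons (0.444 ± 0.973 CPM).

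Among the receptors and binding proteins of insulin and IGFs, *Insr* led in endothelial cells with 144 ± 26.5 CPM, as *Igf1r* did, and *Igf2r* in mural cells with 43.1 ± 50.3 CPM. *Igfbp3* (109 ± 86.5 CPM), *Igfbp4* (385 ± 169 CPM) and *Igfbp6* (541 ± 267 CPM) led in fibroblasts, and *Igfbp7* led in mural cells with 2132 ± 446 CPM.

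As a description over 24 clusters of all cells, the following genes had the log2(CPM + 1) levels most like those of a member. *Igf1r* was closest to *Eltd1*, *Slco1a4* and *Ccm2l* (Pearson's r of 0.95, 0.94 and 0.94), *Igf2* to *Ifitm1*, *Dcn* and *Slc6a20a* (0.92, 0.88 and 0.87), and *Ghr* to *Gulp1*, *Cyp7b1* and *Ror1* (0.84, 0.82 and 0.80). *Igfbp5* was closest to *Klf5*, *Loxl1* and *Epb4.1l5* (0.85, 0.81 and 0.80), *Igfbp2* to *Fibin*, *Col1a2* and *Fgfr1* (0.85, 0.82 and 0.82), and *Igf1* to *Spp1*, *Igfbp4* and *Aldh1a2* (0.83, 0.73 and 0.72). Over the 23 neuronal clusters, *Sst* was closest to *Izumo4*, *Gm17660* and *Gstm3* (0.74, 0.74 and 0.73) and *Ghrh* to *Fam186a*, *Ifi202b* and *Frem1* (0.79, 0.77 and 0.77). Clusters share libraries and differ in depth, so these values carry no test.

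The 9137 neurons were then divided into 23 clusters, again without the members, and each of 22 clusters was compared with the other neurons of the same libraries. Of 82 tests of members, 45 passed an adjusted p of 0.05 in edgeR's quasi-likelihood test with the library as a block, 8 higher and 37 lower, where 22.2% of all 150263 gene tests passed. *Sst*, *Ghr*, *Igf1r* and *Igfbp5* passed the filter on low counts for this test in most clusters, and *Ghrh*, *Igf1*, *Igf2* and *Igfbp2* passed it in none. That filter asks for a minimum level in enough libraries, so many UMIs in a few libraries do not pass it. Of the 37 lower calls, 18 were of *Sst* and 13 of *Igfbp5*. The other neurons of such a comparison include the few clusters where these genes are high, so the lower calls are not separate results. An exact sign-flip test over libraries, chosen after the values were seen because a few cells can carry a sum, passed 60 of its 176 member tests and 27 of the 45. For the clusters it was run on members alone, so no share over all genes stands beside these counts.

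The clearest cluster pattern was that of *Igfbp5*. In the cluster led by *Vipr2* and *Prokr2*, receptor genes characteristic of the suprachiasmatic nucleus, it had 1218 ± 291 CPM against 105 ± 23.8 CPM in other neurons, and it was higher in 16 of 16 libraries. The log2 fold change was 3.601 ± 0.08 (SE, edgeR quasi-likelihood test with Benjamini-Hochberg adjustment, adjusted p = 4.04e-62), in a cluster where 37.6% of genes passed. These 904 neurons held 1714 of the 3536 neuronal *Igfbp5* UMIs, and *Sst* and *Ghrh* neurons were absent from them at the minimum counts used below. Of the other 21 clusters, *Igfbp5* was lower in 13 past the threshold. The neurons that each was compared with include the *Vipr2*-led cluster, which raises their level. Outside the *Vipr2*-led cluster, neurons had a pooled *Igfbp5* level of 106 CPM. The *Gal*-led cluster, at a pooled 108 CPM, was set against 215 CPM, so a lower call need not mean a level below most neurons.

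The receptors marked other clusters. *Ghr* was higher in the cluster led by *Agrp* and *Npy*, the feeding peptides of the arcuate nucleus, with 203 ± 98.5 CPM against 31.0 ± 13.6 CPM, in 6 of the 6 libraries with at least 5 such neurons (log2 fold change 2.24 ± 0.40, edgeR quasi-likelihood test, adjusted p = 4.28e-06, where 4.75% of genes passed). With 6 libraries the exact sign-flip permutation test cannot go below p = 0.0312. In the *Lrrtm4*-led cluster, *Ghr* had 121 ± 55.1 against 33.7 ± 9.56 CPM and *Igf1r* 96.8 ± 46.4 against 37.4 ± 7.55 CPM, each higher in 14 of 14 libraries (log2 fold changes 1.86 ± 0.20 and 1.42 ± 0.20, edgeR, adjusted p = 8.10e-14 and 1.41e-09). In the *Oxt*-led cluster edgeR also called *Ghr* higher (0.89 ± 0.32, adjusted p = 0.0308), with 77.0 ± 104 against 34.9 ± 10.4 CPM, although 4 of 12 libraries were higher. The *Lrrtm4*-led cluster has a median of 796 UMIs per neuron, and 77.4% of its genes passed, so a call there separates few genes from the rest.

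*Sst* was spread over several clusters. It had 1335 ± 1240 CPM in the *Tac1*-led cluster against 235 ± 93.9 CPM in other neurons (12 of 16 libraries, log2 fold change 2.32 ± 0.22, edgeR quasi-likelihood test, adjusted p = 1.44e-12, where 18.9% of genes passed) and 706 ± 477 against 310 ± 211 CPM in the *Meis2*-led cluster of GABAergic neurons (12 of 16 libraries, 1.11 ± 0.18, adjusted p = 2.46e-06, 19.7%). In the *Agrp*-led cluster edgeR also called it higher (log2 fold change 0.94 ± 0.21, adjusted p = 0.000548), with 1262 ± 1645 against 438 ± 246 CPM, although only 3 of 6 libraries were higher. *Ghrh* did not pass the filter on low counts for edgeR and was higher in the *Gal*-led cluster, 90.9 ± 174 against 11.2 ± 11.5 CPM, in 13 of 16 libraries (exact sign-flip permutation test, adjusted p = 0.0182). *Igf1* was higher in the *Ppp1r17*-led cluster, 57.7 ± 58.3 against 10.7 ± 5.53 CPM, in 10 of 15 libraries (exact sign-flip permutation test, adjusted p = 0.0160). This was not its highest cluster. Its pooled level was 122.6 CPM in the *Slc6a3*-led (5 UMIs), 78.3 in the *Shox2*-led (28 UMIs) and 67.45 in the *Ppp1r17*-led cluster (36 UMIs).

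Some clusters carried genes of other cell types, so their members' levels are not those of neurons alone. The *Itih3*-led cluster had the astrocyte genes *Slc1a3*, *Gja1* and *Ntsr2* among its leading genes and the *Hba-a2*-led cluster had globin and myelin genes. The *Ctss*-led cluster, with microglial genes, was left out of the comparison.

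**Figure D2:**
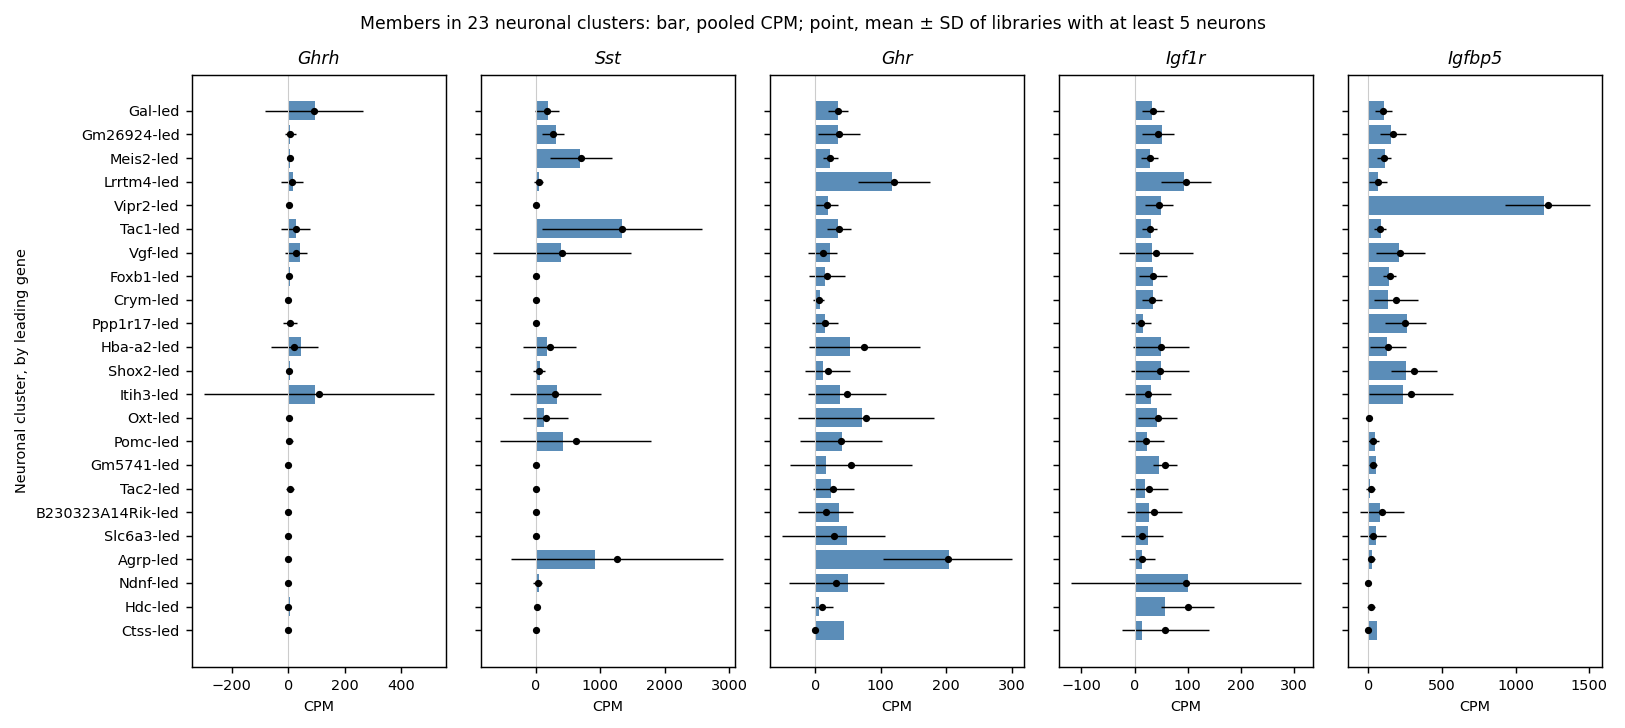
Level in CPM of *Ghrh*, *Sst*, *Ghr*, *Igf1r* and *Igfbp5* in 23 neuronal clusters, named by their leading gene and ordered by size; bars are the pooled level and points the mean ± SD over libraries that had 5 or more of those neurons. *Igfbp5* stands out in the *Vipr2*-led cluster (1218 CPM), *Ghr* in the *Agrp*-led (203 CPM) and *Lrrtm4*-led (121 CPM) clusters, and the wide bars of *Sst* and *Ghrh* show how far libraries differed.

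Neurons with at least 3 *Sst* UMIs, called *Sst* neurons here, numbered 241 of 9137, 4 to 26 per library, and held 95.9% of neuronal *Sst* UMIs. The count ran very high in a few of them, with a median of 12 and a highest of 299 UMIs, and 30 neurons held 50% of the total. By cluster, 87 of the 241 (36.1%) lay in the *Meis2*-led cluster, 57 (23.7%) in the *Tac1*-led and 32 (13.3%) in the *Gal*-led cluster. The *Agrp*-led cluster held 10, which were 15.6% of its 64 neurons, the largest such share of any cluster. By UMIs, the *Tac1*-led cluster held 47.1% of neuronal *Sst* and the *Meis2*-led cluster 27.3%. *Slc17a6*, a gene of glutamate neurons, is among the leading genes of the *Tac1*-led cluster. Neurons with at least 2 *Ghrh* UMIs, called *Ghrh* neurons, numbered 43, and 30 of them (69.8%) lay in the *Gal*-led cluster. Both minimums were passed by 1 neuron. How many neurons unrelated sets of 241 and 43 would share was not worked out, so this count does not show that the peptides exclude each other. A minimum of UMIs picks deep cells, the median total being 2979 UMIs in *Sst* neurons and 3717 in *Ghrh* neurons against 1488 in all neurons.

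The other genes of these neurons were compared with those of the remaining neurons of the same library. For *Sst* neurons, 237 in 15 libraries with at least 5, 131 of 6955 genes passed edgeR's quasi-likelihood test at an adjusted p of 0.05 (1.88%), 23 higher and 108 lower. Of 25 partner genes (transmitter enzymes and transporters, other peptides, transcription factors and receptors), 18 passed the filter on low counts, 5 were higher and 8 lower. *Npy*, the peptide found beside somatostatin in many forebrain interneurons, had 1647 ± 1912 CPM against 161 ± 193 and was higher in 14 of 15 libraries (log2 fold change 3.19 ± 0.16, edgeR, adjusted p = 6.46e-54). *Otp*, a homeobox gene needed for hypothalamic neuroendocrine neurons, had 170 ± 121 against 28.6 ± 10.99 CPM (13 of 15, 2.41 ± 0.22, edgeR adjusted p = 1.64e-20). *Npy* and *Otp* are both leading genes of the *Agrp*-led cluster, which holds 10 of the 241 *Sst* neurons. The part of those cells in the differences was not tested.

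The other partner genes called higher were *Slc32a1*, *Gad2* and *Meis2*, of which the former pair belongs to GABA neurons. All of them are leading genes of the *Meis2*-led cluster, which holds 87 of the 241 *Sst* neurons. The part of those cells in the differences was not tested. *Slc32a1*, the vesicular GABA transporter, rose by a log2 fold change of 0.66 ± 0.16 (11 of 15 libraries), *Gad2*, a GABA-making enzyme, by 0.36 ± 0.11 (12 of 15) and *Meis2* by 1.17 ± 0.26 (10 of 15; edgeR adjusted p = 0.00265, 0.0446 and 0.00120), while *Gad1*, the other such enzyme, had 0.18 ± 0.15 and did not pass. *Pcsk1n*, which encodes an inhibitor of a prohormone convertase, was higher in 15 of 15 libraries (0.38 ± 0.09, edgeR adjusted p = 0.00334) and lost this call in 2 of 22 alternatives, without a filter on low counts, where the log2 fold change was 0.09, and without barcodes found in more than 1 library, where it was 0.33. Lower were *Gal* (70.8 ± 77.4 against 630 ± 230 CPM, 0 of 15 libraries higher, log2 fold change -3.09 ± 0.18), *Pdyn*, *Nts*, *Tac1*, *Pomc*, *Penk*, *Prlr* and *Slc17a6*, the vesicular glutamate transporter, with log2 fold changes of -2.41 to -0.96. The other neurons include the *Gal*-led, *Tac1*-led and *Pomc*-led clusters, which raise their levels of these leading genes. A comparison without those clusters was not run, so a lower call need not mean a level below most neurons.

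Members differed among *Sst* neurons as well. *Ghr* had 115 ± 96.4 CPM against 34.4 ± 11.7 in other neurons, from 81 UMIs, and was higher in 11 of 15 libraries (log2 fold change 1.61 ± 0.25, edgeR quasi-likelihood test, adjusted p = 6.72e-08, and exact sign-flip permutation test over libraries, adjusted p = 0.0234). *Ghr* was high in the *Agrp*-led cluster too, and the part of its 10 *Sst* neurons in this difference was not tested. *Igfbp5* was lower, 71.8 ± 35.7 against 193 ± 43.3 CPM, in 15 of 15 libraries (-1.38 ± 0.19, edgeR adjusted p = 1.70e-09). The other neurons include the *Vipr2*-led cluster, which is high in *Igfbp5* and held no *Sst* neurons. Neurons outside that cluster had a pooled 106 CPM, and a comparison with those alone was not run. For *Igf1r* the values were 18.5 ± 17.6 and 39.2 ± 12.1 CPM, from 17 UMIs, and edgeR did not call it (-0.86 ± 0.36, adjusted p = 0.320). *Ghrh*, *Igf1*, *Igf2* and *Igfbp2* had 5 to 8 UMIs in these neurons and did not pass the filter on low counts for edgeR.

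*Ghrh* neurons could be compared in 4 libraries, WT tamoxifen replicates 1 and 4 and Esr1cKO tamoxifen replicates 1 and 3, with 26 neurons. All of these mice had been given tamoxifen, so *Ghrh* neurons of mice given oil are not described by this comparison. There 85 of 8888 genes passed (0.956%), 6 higher and 79 lower. The smallest p of a sign-flip test over 4 libraries is 0.125, so these calls rest on the spread that edgeR estimated over all genes, and 45 genes passed without Esr1cKO tamoxifen replicate 3. *Gal*, a peptide known in growth hormone-releasing neurons, had 4881 ± 2448 CPM against 590 ± 206 and was higher in 4 of 4 libraries (log2 fold change 2.66 ± 0.17, edgeR adjusted p = 4.74e-54). The *Gal*-led cluster holds 30 of all 43 *Ghrh* neurons, and its part in this difference was not tested. *Ecel1*, which encodes a neuronal endopeptidase-like protein, had 366 ± 319 against 86.1 ± 11.4 CPM (1.67 ± 0.38, edgeR adjusted p = 0.00250), and *Slc10a4*, a transporter of synaptic vesicles, 63.2 ± 42.0 against 5.01 ± 2.92 CPM from 6 UMIs (3.31 ± 0.89, edgeR adjusted p = 0.0269). *Slc10a4* was too low in other neurons to pass the filter on low counts there. It was tested only because the *Ghrh* neurons of each library held it, so its direction was set by the filter and its call is a description. The call of *Slc10a4* was lost in 8 of 22 alternatives and that of *Ecel1* in 2 of 22, and both were lost with a higher UMI minimum and without WT tamoxifen replicate 1, where *Ecel1* had a log2 fold change of 1.01.

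Of the 25 partner genes 19 were tested, 1 was higher (*Gal*) and 7 were lower. *Npy*, *Nts* and *Tac1* had 0 UMIs in the 26 *Ghrh* neurons against 299 ± 374, 95.6 ± 59.7 and 158 ± 77.9 CPM in other neurons, and *Pomc*, *Prlr*, *Slc17a6* and *Gad2* were lower with 1 to 40 UMIs. *Npy*, *Nts* and *Tac1* thus passed the filter on low counts through the other neurons alone, and their calls are a description. The other neurons include the *Agrp*-led, *Tac1*-led and *Pomc*-led clusters, of which *Npy*, *Tac1* and *Pomc* are leading genes. *Igfbp5* was lower too, 42.5 ± 9.23 against 176 ± 23.5 CPM (-2.44 ± 0.61, edgeR adjusted p = 0.0104), in 4 of 4 libraries. Here as well the other neurons include the *Vipr2*-led cluster, which held no *Ghrh* neurons, and neurons outside that cluster had a pooled 106 CPM. *Th*, the enzyme of dopamine synthesis found in some of these neurons, had 106 ± 53.8 against 39.99 ± 2.44 CPM and did not pass (1.001 ± 0.64, edgeR adjusted p = 0.649). *Gsx1*, a homeobox gene required for *Ghrh* neurons to form, had 94.9 ± 127 against 4.31 ± 2.72 CPM, higher in 3 of 4 libraries, from 10 UMIs, and did not pass the filter on low counts for edgeR.

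**Figure D3:**
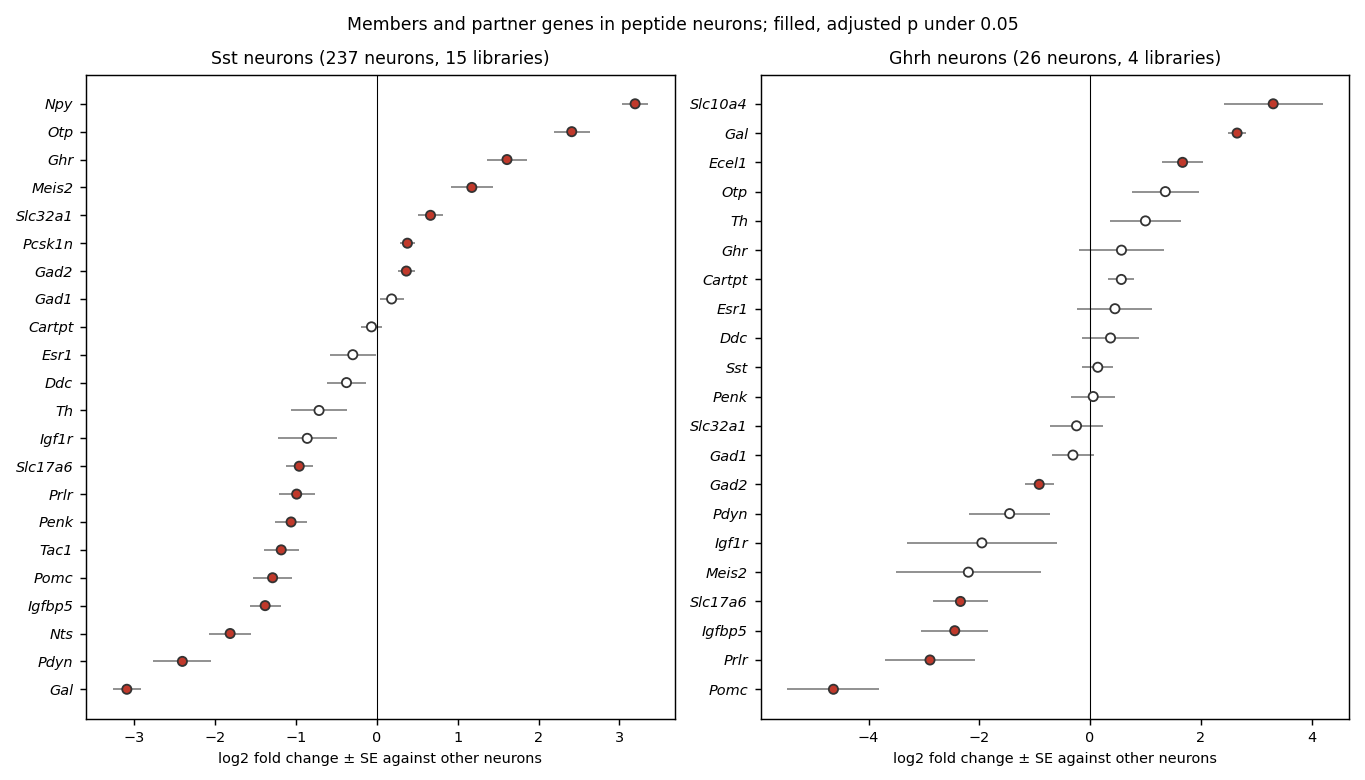
Log2 fold change ± SE (edgeR) of members and partner genes in *Sst* neurons and *Ghrh* neurons against the other neurons of the same library. The sets held 237 neurons of 15 libraries and 26 neurons of 4 libraries, the latter all of mice given tamoxifen. Filled points passed an adjusted p of 0.05. *Npy* (3.19), *Otp* (2.41) and *Ghr* (1.61) lie highest in *Sst* neurons and *Gal* (-3.09) lowest, while *Gal* is high (2.66) in *Ghrh* neurons, and genes with 0 UMIs in the set are not drawn.

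For the groups of mice, UMIs were summed over the cells of each type in each library and compared in a fit of all 4 groups. Filtering on low counts left 35 tests of members over the 9 types: 6 members in neurons, 5 each in astrocytes, endothelial and ependymal cells, 3 each in fibroblasts, microglia, mural cells and oligodendrocytes, and 2 in polydendrocytes. For tamoxifen against oil in WT mice, edgeR's quasi-likelihood test with Benjamini-Hochberg adjustment called 0 of the 35 (0% of all 64900 gene tests), 5 had an unadjusted p under 0.05 (3.29% of all tests did), and DESeq2 called 1. The share of all genes called by DESeq2 is not given here, so its counts of members cannot be set against one. The groups of libraries did not overlap for 3 of the 35 (3.43% of all tests). For tamoxifen against oil in Esr1cKO mice, edgeR called 0 (0%), 4 had an unadjusted p under 0.05 (3.6%), DESeq2 called 0 and 1 had groups that did not overlap (2.4%).

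The interaction of genotype and treatment, the test of whether the tamoxifen effect differed between genotypes, was called for 0 members by edgeR (0%) and by DESeq2, and 6 had an unadjusted p under 0.05 (4.84%). For Esr1cKO against WT, edgeR called 0 members under oil (0%) and 0 under tamoxifen (0.00154% of all tests, and 0.00807% of those in neurons), DESeq2 called 0 in each, 2 and 6 had an unadjusted p under 0.05 (4.86% and 3.2%), and 1 and 3 had groups that did not overlap (5.57% and 1.49%). The median log2 fold change of the 35 tests was 0.06 for tamoxifen in WT mice and -0.17 in Esr1cKO mice, beside 0.02 and -0.02 over all tests. In all kept cells of a library summed together, 0 of 8 members were called by edgeR in each of these 5 comparisons, as were 0 of all 16626 genes. There 1, 0, 0, 1 and 0 members had an unadjusted p under 0.05, beside 1.87, 3.25, 4.26, 5.80 and 2.71% of all genes. Of 41 other axis genes, 29 were tested in 106 tests over the types, and 0 were called by edgeR in each comparison. Of these tests 7, 4, 10, 10 and 4 had an unadjusted p under 0.05, beside 3.29, 3.6, 4.84, 4.86 and 3.2% of all gene tests. Each comparison with a group shares that group's mice with another comparison.

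**Figure D4:**
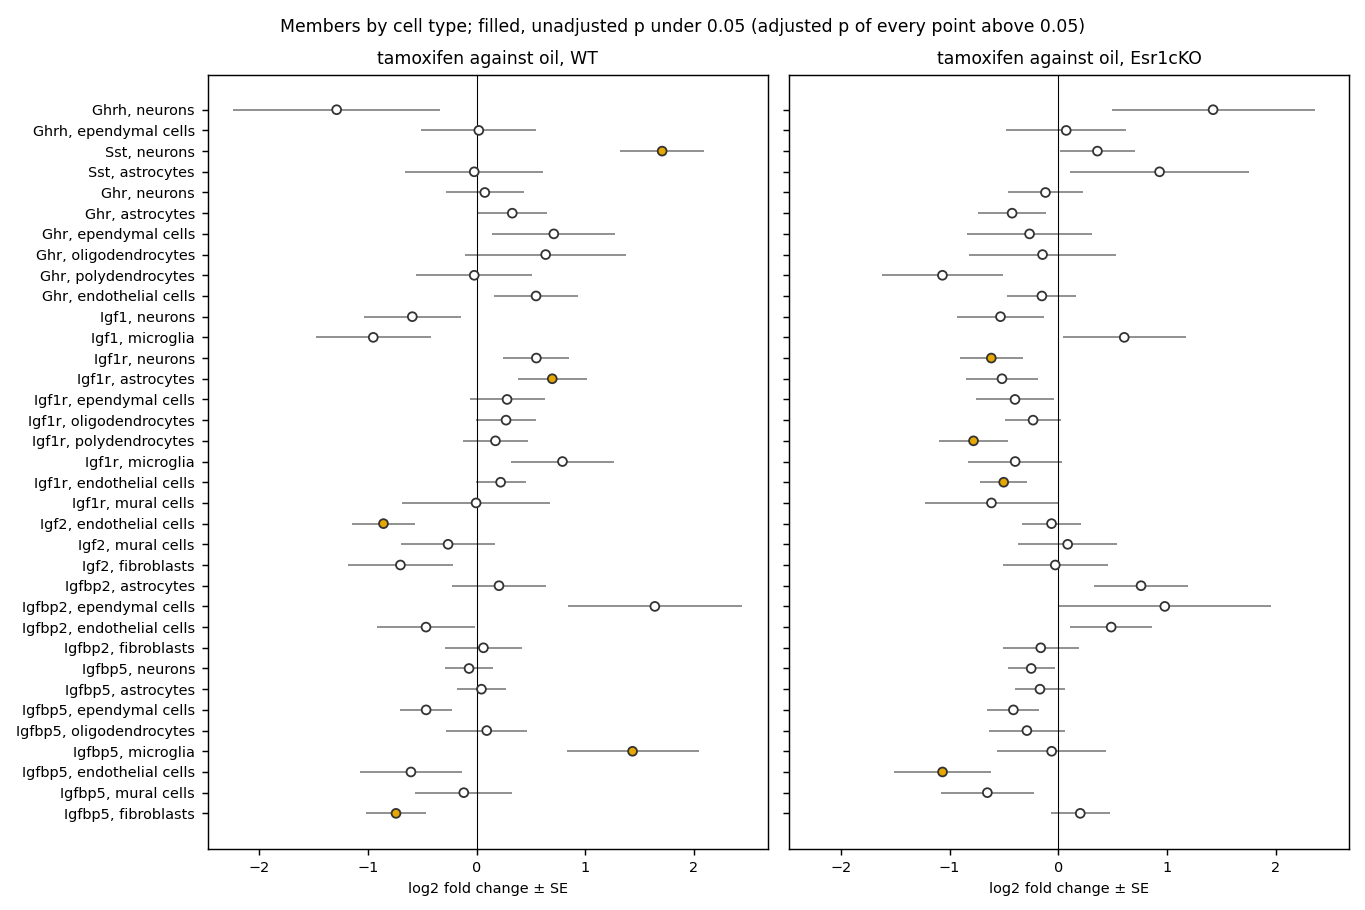
Log2 fold change ± SE (edgeR) of tamoxifen against oil for the 35 tests of members by cell type, WT mice on the left and Esr1cKO mice on the right; filled points had an unadjusted p under 0.05 and no point passed the adjusted threshold. *Sst* in neurons lies farthest right among the filled points in WT mice (1.71) and at 0.36 in Esr1cKO mice.

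*Sst* in neurons had the smallest p of the members. Its levels were 121, 148 and 202 CPM in the 3 WT oil mice and 601, 841, 458, 390 and 306 CPM in the 5 WT tamoxifen mice. In Esr1cKO mice they were 433, 140, 295 and 402 CPM under oil and 312, 287, 449 and 590 CPM under tamoxifen. Among the neurons kept, every WT tamoxifen mouse was above every WT oil mouse, while both Esr1cKO groups overlapped. There 3 of the 4 Esr1cKO oil mice were also above every WT oil mouse. Over all cell types, the filters on cells kept 81 of 140, 205 of 480 and 238 of 580 listed *Sst* UMIs in WT oil mice. In WT tamoxifen mice they kept 930 of 1503, 922 of 1006, 535 of 632, 514 of 645 and 347 of 515. The WT difference had a log2 fold change of 1.71 ± 0.39 with an unadjusted p of 0.000388 in edgeR, an adjusted p of 0.9997 over 12395 genes, and in DESeq2 1.70 ± 0.37 with an adjusted p of 0.0462, the smallest of the alternatives, whose range reached 1.

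In Esr1cKO mice the log2 fold change of *Sst* was 0.36 ± 0.35, and the difference between the genotypes was -1.35 ± 0.51 (edgeR interaction, unadjusted p = 0.0172, adjusted p = 0.938). Under oil, Esr1cKO exceeded WT by 1.05 ± 0.39 (unadjusted p = 0.0158 in edgeR, adjusted p = 1), and the WT oil group, with 3 mice, enters the WT difference, the interaction and the comparison under oil. Across alternatives the Esr1cKO value of *Sst* ran from 0.13 to 0.92, the interaction from -1.67 to -0.67 and the difference under oil from 0.38 to 1.32. With mitochondrial shares under 5% these were 0.92, -0.67 and 0.38, and leaving out 1 library at a time gave 0.13 to 0.55, -1.60 to -1.08 and 0.86 to 1.32. Summed over all kept cells the WT difference of *Sst* was 1.66 ± 0.52, and over all listed barcodes, without a filter on cells, it was 0.98. Over all listed barcodes the WT groups overlapped. WT oil replicate 3 had 580 *Sst* UMIs in 6001200, a higher share than the 632 in 7160816 of WT tamoxifen replicate 3. A sum over neurons cannot tell apart fewer *Sst* neurons and less *Sst* per neuron, and the neuron count that passed the minimum was therefore compared as well.

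The share of neurons with at least 3 *Sst* UMIs was 2.10, 1.55 and 1.81% in WT oil mice and 2.77, 4.46, 2.51, 3.03 and 2.53% in WT tamoxifen mice, and these groups did not overlap. Their means were 1.82 ± 0.27% and 3.06 ± 0.81% (exact two-sided permutation test over mice, p = 0.0357, adjusted p = 0.286 over 8 tests, smallest possible p = 0.0179). In Esr1cKO mice the share was 1.98 ± 0.30% under oil (n = 4) and 3.03 ± 0.95% under tamoxifen (n = 4; exact permutation test, p = 0.114, adjusted p = 0.457). None of the 8 tests of shares passed the adjusted threshold. With at least 1 *Sst* UMI the WT groups overlapped, with 15 of 333 neurons in WT oil replicate 1 and 23 of 558 in WT tamoxifen replicate 3. The WT difference was 1.24 percentage points at the minimum used, 0.946 with at least 1 UMI and 1.16 when thinned to 500 UMIs. In each of the latter 2 settings, 0 tests had an unadjusted p under 0.05 (exact permutation tests). Within *Sst* neurons the mean count was 9.43, 19.4 and 23.3 UMIs per neuron in WT oil mice and 35.2, 33.5, 35.3, 21.4 and 20.3 in WT tamoxifen mice, groups that overlapped. In WT oil replicate 2, 1 neuron held 63.4% of the *Sst* UMIs of its library, and in Esr1cKO tamoxifen replicate 2, 1 neuron held 90.9%.

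*Ghrh* in neurons followed single cells more than groups. Its levels were 3.26, 6.87 and 118 CPM in WT oil mice and 28.6, 6.61, 20.9, 27.3 and 6.58 CPM in WT tamoxifen mice. In Esr1cKO mice they were 17.9, 8.78, 16.3 and 25.2 CPM under oil and 144, 0, 23.6 and 7.80 CPM under tamoxifen. All groups overlapped. The WT log2 fold change was -1.29 ± 0.95 and turned to 1.75 ± 1.09 without the 2 libraries that stood apart, where WT oil replicate 3 with its 1 neuron of 98 UMIs was left out (edgeR adjusted p = 0.9997 in the fit of all libraries). In Esr1cKO mice the log2 fold change was 1.42 ± 0.93.

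The share of *Ghrh* neurons was 0.291 ± 0.350, 0.426 ± 0.366, 0.346 ± 0.140 and 0.520 ± 0.482% in the order WT oil, WT tamoxifen, Esr1cKO oil and Esr1cKO tamoxifen, with exact permutation p-values of 0.486 to 0.8 for the 4 comparisons. Ependymal *Ghrh* had group means of 24.2 ± 9.11, 29.5 ± 20.9, 25.0 ± 11.6 and 31.6 ± 15.9 CPM in the same order and log2 fold changes for tamoxifen of 0.02 ± 0.53 in WT and 0.07 ± 0.55 in Esr1cKO mice.

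**Figure D5:**
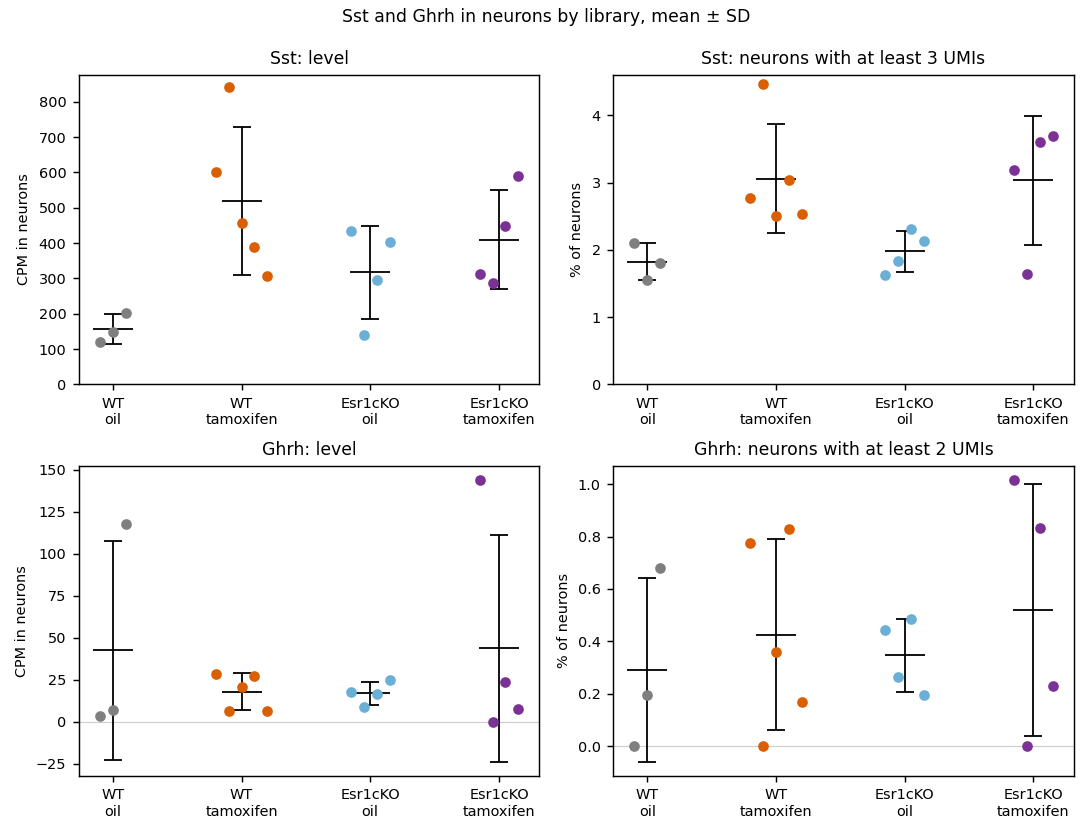
*Sst* and *Ghrh* in neurons by group: level in CPM (left) and percent of neurons past the UMI minimum (right), with 1 point per mouse and the mean ± SD. The 5 WT tamoxifen mice lie above the 3 WT oil mice in both *Sst* panels, at 306 to 841 against 121 to 202 CPM, and *Ghrh* is set apart in 1 WT oil mouse (118 CPM) and 1 Esr1cKO tamoxifen mouse (144 CPM).

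For the receptors, *Igf1r* in neurons was 50.6, 30.1 and 16.4 CPM in WT oil, 39.9, 44.4, 51.8, 40.2 and 52.7 in WT tamoxifen, 39.9, 32.6, 52.2 and 42.2 in Esr1cKO oil and 34.6, 33.2, 14.3 and 34.5 CPM in Esr1cKO tamoxifen mice. The lowest values, 16.4 and 14.3 CPM, were those of the libraries that stood apart, and all other libraries lay at or above 30.1 CPM. The interaction of *Igf1r* was -1.17 ± 0.42 in neurons (edgeR unadjusted p = 0.0127, adjusted p = 0.938) and -0.61 ± 0.32 without those libraries. In astrocytes it was -1.22 ± 0.46 and -0.71 ± 0.40 without them, WT oil replicate 3 being again the lowest at 18.1 CPM.

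*Igf1r* in polydendrocytes kept its size without those libraries. It was 41.1, 71.7, 54.8 and 57.4 CPM in Esr1cKO oil mice and 33.4, 20.7, 34.9 and 39.0 CPM in Esr1cKO tamoxifen mice, with no overlap, and fell by 0.78 on the log2 scale (SE 0.32, edgeR unadjusted p = 0.0232, adjusted p = 0.955), with -0.82 ± 0.38 without them. Endothelial *Igf1r*, the type with most of its UMIs, had 314, 290 and 279 CPM in WT oil, 241, 320, 347, 355 and 430 in WT tamoxifen, 417, 412, 318 and 440 in Esr1cKO oil and 209, 319, 194 and 399 CPM in Esr1cKO tamoxifen mice. Its log2 fold changes for tamoxifen were 0.22 ± 0.23 in WT and -0.50 ± 0.22 in Esr1cKO mice, neither past the adjusted threshold.

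*Ghr* showed no group difference that passed. In astrocytes it was 172, 141 and 74.2 CPM in WT oil, 106, 141, 187, 188 and 160 in WT tamoxifen, 157, 261, 104 and 281 in Esr1cKO oil and 157, 137, 101 and 196 CPM in Esr1cKO tamoxifen mice. The libraries that stood apart were again the lowest of their groups, and the astrocyte log2 fold changes for tamoxifen were 0.33 ± 0.32 in WT and -0.43 ± 0.31 in Esr1cKO mice. In neurons they were 0.08 ± 0.36 and -0.12 ± 0.35.

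Of the ligands, none had a group difference past the adjusted threshold. Endothelial *Igf2* was 195, 194 and 339 CPM in WT oil mice and 131, 125, 136, 172 and 114 CPM in WT tamoxifen mice, with no overlap. In Esr1cKO mice it was 177, 228, 232 and 259 CPM under oil and 146, 150, 377 and 164 CPM under tamoxifen, where replicate 3, a library that stood apart, was the highest. The WT log2 fold change was -0.86 ± 0.29 (edgeR unadjusted p = 0.00826, adjusted p = 0.9998), and it was -0.50 ± 0.21 without the libraries that stood apart, beside -0.06 ± 0.28 and -0.57 ± 0.18 for Esr1cKO mice. The cluster with both endothelial and mural genes held most of these UMIs, and its part in the difference was not tested.

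*Igf1* in the microglial type was 0, 48.2 and 71.3 CPM in WT oil, 21.1, 10.1, 34.3, 26.5 and 22.02 in WT tamoxifen, 33.9, 16.5, 12.3 and 24.2 in Esr1cKO oil and 41.2, 32.7, 45.1 and 16.6 CPM in Esr1cKO tamoxifen mice. All groups overlapped, with log2 fold changes for tamoxifen of -0.95 ± 0.53 in WT and 0.61 ± 0.57 in Esr1cKO mice. These values come from 119 UMIs in 16 libraries, and the highest, 71.3 CPM, was that of WT oil replicate 3, a library that stood apart.

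Among the binding proteins, *Igfbp5* in fibroblasts was 3529, 2309 and 2120 CPM in WT oil and 1706, 1551, 1462, 1665 and 1635 CPM in WT tamoxifen mice. In Esr1cKO mice it was 1827, 2516, 2290 and 1769 CPM under oil and 3063, 1253, 2797 and 2566 CPM under tamoxifen. The WT groups did not overlap and the Esr1cKO groups did. The log2 fold change was -0.74 ± 0.28 in WT mice (edgeR unadjusted p = 0.0140, adjusted p = 0.999) and 0.20 ± 0.27 in Esr1cKO mice, with an interaction of 0.94 ± 0.39 (edgeR unadjusted p = 0.0242, adjusted p = 0.9998). Without WT oil replicate 1, the highest of the WT oil mice, the WT value was -0.45.

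*Igfbp2* in endothelial cells was 10.7, 10.1, 11.9, 20.9 and 11.02 CPM in WT tamoxifen and 32.8, 21.4, 42.4 and 17.9 CPM in Esr1cKO tamoxifen mice, which overlapped through 1 WT mouse, and 7.48, 26.9 and 14.6 CPM in WT oil mice. The difference between the genotypes under tamoxifen was 1.12 ± 0.36 (edgeR unadjusted p = 0.00582, adjusted p = 0.9999) and 0.75 ± 0.40 without the libraries that stood apart. Of the endothelial *Igfbp2* UMIs, 124 lay in the cluster that joins endothelial and mural genes and 45 in the other endothelial cells, 10.6 ± 10.99 CPM. *Igfbp2* in fibroblasts ran from 954 to 1200 CPM in WT tamoxifen mice and from 464 to 790 CPM in Esr1cKO tamoxifen mice, without overlap (-0.65 ± 0.33, edgeR unadjusted p = 0.0653, adjusted p = 0.9998).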

How the data were processed

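Drop-seq was performed on the hypothalamus-POA of 16 female mice, 1 library per mouse. The deposited values are UMI counts per gene and cell barcode, which the authors made by alignment to mm10 with STAR 2.6 per the submitters' processing notes; the annotation and counting program are not given in the sources used here. Libraries held 2634253 to 8038158 UMIs, and every column of counts was used.

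Barcodes were kept if they had over 200 and below 4000 genes and a mitochondrial share of UMIs under 15%. Cells were integrated and clustered with Seurat 5.3.0 at a resolution of 0.05 for types, 0.5 for finer classes and 0.7 for neurons, without the 8 members among the variable genes. Doublets called by Scrublet in scanpy 1.11.5 (717 cells, 0.156 to 2.49% per library, with exact neighbours) were kept and removed in an alternative. Members and gene lists were chosen with earlier results of these data known. Named genes were the 8 members, the highest type of 12 related genes, and for *Sst* and *Ghrh* neurons 25 partner genes plus the genes called and higher in every library.

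UMIs were summed per library and type (at least 10 cells) and divided by the summed UMIs of those cells to give CPM. The study compared single cells with a Wilcoxon test; here libraries are the replicates, numbered in accession order, and p-values measure the spread between mice. The 4 groups were fitted together with edgeR 4.0.16 (filterByExpr, TMM, quasi-likelihood test, Benjamini-Hochberg adjustment within a type; R 4.3.3), with DESeq2 1.42.0 as an alternative. Neuronal clusters and peptide neurons (at least 5 neurons per library) were compared with the other neurons with the library as a block. Types were compared by exact sign-flip tests and shares by exact permutation tests (scipy 1.17.1). The fits were tested on simulated data. Sign-flip tests for neuronal clusters, removal of shared barcodes, sums of all listed barcodes and counts for finer classes were chosen after seeing the data. Groups were processed in parallel over 4 days, and the labels do not name the day.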

Additional observations from a re-analysis of the deposited data

Results flagged for a closer look

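In groups of 4 or 5 mice, 9 of 111 sets of values had a mouse far from the others by Dixon's criterion, which chance gives in about 1 in 20 groups. In endothelial cells these were *Igf2* in Esr1cKO tamoxifen replicate 3 (377 CPM, high), *Igfbp2* in WT tamoxifen replicate 4 (20.9 CPM, high) and *Igfbp5* in WT tamoxifen replicate 5 (23.9 CPM, low). In ependymal cells they were *Ghrh* in Esr1cKO oil replicate 2 (42.3 CPM, high), *Igf1r* in WT tamoxifen replicate 2 (28.3 CPM, low) and *Igfbp2* in the same mouse (453 CPM, high), whose ependymal cells also held the choroid plexus genes. In neurons they were *Ghrh* in Esr1cKO tamoxifen replicate 1 (144 CPM, high), *Igf1r* in Esr1cKO tamoxifen replicate 3 (14.3 CPM, low) and the share of *Sst* neurons in WT tamoxifen replicate 2 (4.46%, high).

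Signal also lay outside the cells compared. Barcodes with 4000 genes or more held 505 UMIs of *Ghrh*, 1488 of *Sst* and 3289 of *Igfbp5*. *Igfbp5* had a pooled level of 2468 CPM in the cells with pars tuberalis markers.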

How the results depend on the processing

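Of 24 single fold changes recomputed in 569 comparisons with alternatives, 556 kept their direction and side of the threshold, 12 lost their call (8 for *Slc10a4*, 2 for *Ecel1* and 2 for *Pcsk1n*), 1 gained one (*Sst* in WT neurons under DESeq2, log2 fold change 1.70) and 0 reversed. Those between groups of mice were not called in the main fit, so keeping their side of the threshold says little. Their sizes moved, the *Igf1r* interaction in neurons from -1.56 to -0.60 and endothelial *Igf2* for tamoxifen in WT mice from -1.08 to -0.37. *Ghrh* in neurons, not among these 24 and not called, turned for tamoxifen in WT mice from a log2 fold change of -1.29 to 1.75 without the libraries that stood apart. Counts of members called for tamoxifen in WT mice went from 0 to 1 with DESeq2 and to 2 without a filter on low counts, and for Esr1cKO against WT under tamoxifen from 0 to 2 without that filter. The shares of all genes called under these settings are not given here, so these counts cannot be set against one. Counts for the other comparisons of groups and for shares stayed at 0, and leaving out each library in turn gave 0 to 0 for all of them. Pairs of types past the threshold went from 18 to 8 with mitochondrial shares under 5% (17 to 20 when a library was left out). For neuronal clusters, 45 member calls became 80 without a filter (41 to 51 when a library was left out), again with no share of all genes to set beside them. For *Sst* neurons, 131 genes became 916 without a filter (109 to 147), and for *Ghrh* neurons 85 genes became 40 with DESeq2 size factors, 139 without a filter, 45 without the libraries that stood apart and 149 without shared barcodes (45 to 85 when a library was left out). The causes were not tested. No paired analysis was possible because the labels number the libraries but give no replicate numbers shared by groups and no day. Successive fours of library numbers, of which the first 3 hold 1 mouse of each group, were fitted as a term instead, with 0 members called in the 5 comparisons of groups and a log2 fold change of 1.71 for *Sst* in WT neurons. Depth limits *Ghrh* and *Igf1* most, with 765 and 620 UMIs in all kept cells.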
